A study of Mus musculus with 8 samples.

Results

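Transcription factors that act in fat cell formation were followed in cultured bone marrow mesenchymal stem cells (MSCs) with and without Mettl3, the enzyme that writes N6-methyladenosine (m6A) on RNA. The 9 genes, Pparg, Ppard, Ppara, Rxra, Cebpa, Cebpb, Cebpd, Cebpg and Prdm16, were found by symbol among 47643 named genes of the expression table, and each had 1 entry. RNA-seq covered 2 WT and 2 cKO libraries, and MeRIP-Seq, which enriches m6A-carrying RNA fragments with an antibody, covered 2 immunoprecipitates and 2 inputs of wild-type cells. All mice were C57BL/6. The animals labelled wild type were Mettl3fl/fl littermates per the study's methods, and cKO animals were Prx1-Cre;Mettl3fl/fl, in which Cre is driven by a promoter active in limb mesenchyme. Blood-lineage cells of a marrow culture are therefore not the target of the deletion. Marrow was flushed from tibiae and femurs, and every culture had 2 days in a medium that favours bone formation, with dexamethasone at 100 nM, ascorbic acid at 50 μg/ml and β-glycerophosphate at 5 mM. The age of the donor mice and the number of animals behind a library are not given in the sources used here, so p-values measure the spread between these libraries, which may be technical.

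Fat cell formation from a mesenchymal precursor runs through a cascade of transcription factors. C/EBPβ and C/EBPδ, basic leucine zipper proteins that respond quickly to hormones such as glucocorticoids, come early and activate Pparg and Cebpa. PPARγ is a nuclear receptor for fatty acid ligands that binds DNA as a partner of the retinoid X receptor RXRα, and together with C/EBPα it drives and maintains the genes of the mature adipocyte. PPARα and PPARδ share that partner and are best known for genes of fatty acid oxidation. C/EBPγ is a relative that lacks an activation domain and dimerises with other C/EBP proteins, and PRDM16 is a coregulator of brown and beige fat identity. In marrow, the same precursors can also become osteoblasts.

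The libraries held 23948200 to 34069223 counts. Mettl3 itself lay between 16.3 and 17.6 CPM (counts scaled to a common library size by TMM) in the 4 libraries, with a log2 fold change of -0.03 between genotypes (adjusted p = 0.824), and since the counts cover the whole gene, exons that are not deleted included, they do not check the deletion. The cKO libraries were closer to each other than the WT libraries, with a chi-square over genes divided by its degrees of freedom of 1.82 against 32.6. Stromal genes were high, for example Col1a1 at 1896 and 1921 CPM in WT and 1225 and 1259 CPM in cKO. The 11 stromal markers summed to 4734 and 4571 CPM in WT and to 3108 and 3152 CPM in cKO. Of these, 6 were called lower and 4 higher. Macrophage markers were high as well, led by Lyz2 at 10984 to 15934 CPM. The 11 macrophage markers summed to 18879 and 23295 CPM in WT and to 24870 and 25015 CPM in cKO, with Ptprc, C1qa and C1qb called higher and the other 8 not called. Cebpa, Cebpb, Pparg and Rxra are also known to be expressed in macrophages, so a change of these genes within 1 cell type and a change in the share of cells cannot be told apart in these bulk libraries. The 8 markers of mature adipocytes summed to only 68.2 and 82.1 CPM in WT and 83.7 and 84.1 CPM in cKO. Of these, 3 were called higher and 3 lower, and among the lower Retn passed the filter on low counts only through its WT libraries. The 7 chondrocyte markers fell from 3703 and 3778 CPM to 86.3 and 85.4 CPM, with 6 of them called lower. Osteoblast markers summed to 8079 and 16953 CPM in WT and to 7094 and 7063 CPM in cKO, with 7 of 9 called lower. Most of each sum was Spp1, at 5863 and 14630 CPM in WT and 5694 and 5626 CPM in cKO, which was not called. Endothelial markers summed to 11.03 and 9.66 CPM in WT against 26.4 and 24.03 CPM in cKO. Neutrophil markers summed to 9.09 to 10.6 CPM and erythroid markers to at most 0.619 CPM. The part of these cell types in the results below was not tested.

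Of the 9 factors, 3 were higher in cKO (Pparg, Cebpa and Ppara), 2 were lower (Cebpd and Prdm16) and 4 did not pass an adjusted p of 0.05 (Ppard, Rxra, Cebpb and Cebpg). Over all 15327 genes tested, 30.5% were called, 13.7% as higher and 16.8% as lower, and the median log2 fold change was -0.0038. Pparg was among the adipogenic genes that the study itself showed from these libraries, so its direction is not independent evidence. Ppara passed the filter on low counts only through its cKO libraries, so its call adds no support. The number of factors called went from 5 to 2, Pparg and Cebpa, when the deposited TPM (a level per transcript length) were tested with limma in place of the counts, and to 3 when cKO replicate 2 was left out or both cKO libraries were summed to 1 sample.

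**Figure D1:**
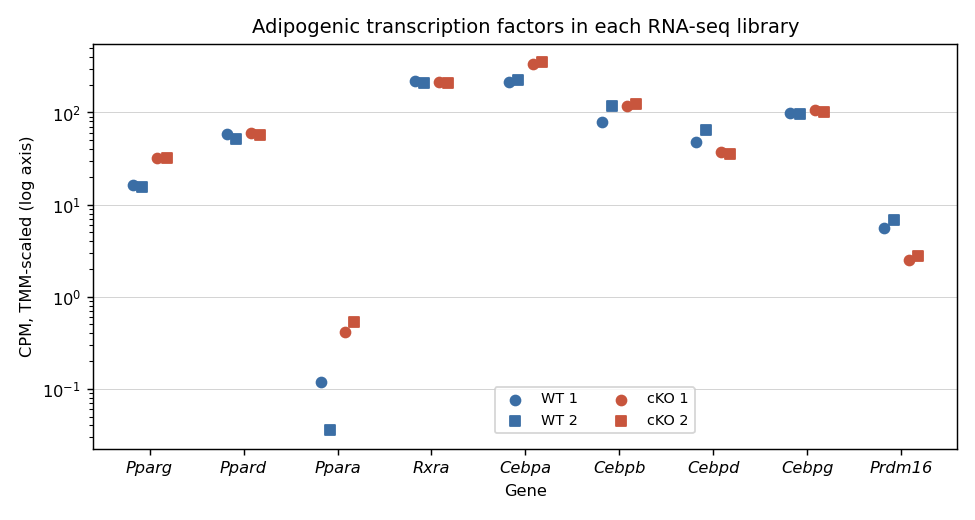
Level of each of the 9 factors in every RNA-seq library, in TMM-scaled CPM on a log axis, with WT libraries in blue and cKO libraries in red. Both cKO points of Pparg lie at 31.8 to 31.9 CPM above WT points at 15.6 and 16.2, both cKO points of Prdm16 lie below WT, and the points of Rxra overlap.

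Pparg, the receptor at the centre of the cascade, rose 2.00-fold. It stood at 16.2 and 15.6 CPM in WT and at 31.9 and 31.8 CPM in cKO. The groups did not overlap, and the higher replicate was 1.04 times the lower in WT and 1.003 times in cKO. On the log2 scale this was 1.0 (standard error 0.0810, 95% interval 0.81 to 1.20, adjusted p = 0.000388). The call held in each alternative fit, with log2 fold changes between 0.97 and 1.29. On the per-length TPM scale the cKO libraries were further apart than in counts, at 27.1 and 36.8 against 13.1 and 12.6 in WT. Pparg (ENSMUSG00000000440) spans chromosome 6 from 115360951 to 115490399 on GRCm38, and an antisense gene within it had 0 counts in every library.

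Rxra, the gene of RXRα, a receptor with which PPARs bind DNA, did not pass the test. Its levels were 220.3 and 209.0 CPM in WT and 216.6 and 210.7 CPM in cKO, and the groups overlapped. The log2 fold change was -0.01 with a 95% interval of -0.15 to 0.14 (adjusted p = 0.946), and on the TPM scale it was 0.17 (adjusted p = 0.161). Per length, Rxra was 4.795 and 4.57 times as high as Pparg in WT and 2.50 and 1.83 times in cKO.

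Ppard stood at 58.4 and 51.3 CPM in WT and 60.3 and 56.8 CPM in cKO, overlapping between the genotypes. The log2 fold change was 0.09 (interval -0.11 to 0.30, adjusted p = 0.440), and it was called, at 0.19 (adjusted p = 0.000660), only without WT replicate 1. Within the PPAR family, Pparg gave 27.9% and 30.9% of the family's TPM in WT and 41.7% and 50.8% in cKO. The ratio of Pparg to Ppard was 0.387 and 0.447 in WT against 0.729 and 1.04 in cKO. Both ratios come from 2 libraries a group and were not tested.

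Ppara, the receptor best known from liver, was close to absent. Its counts were 4 and 1 in WT and 10 and 17 in cKO. Summed per genotype, 27 counts against 5 gave a ratio of 5.98 scaled for depth, with an exact interval of 2.27 to 19.9 that covers counting error only. The fit gave 2.52 on the log2 scale (standard error 0.647, adjusted p = 0.0296), and it lost the call in DESeq2 (adjusted p = 0.146), with the cKO libraries summed (0.115), and without WT replicate 2 (0.0614), cKO replicate 1 (0.114) or cKO replicate 2 (0.221). Even in cKO it gave at most 1.18% of the family's TPM.

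**Figure D2:**
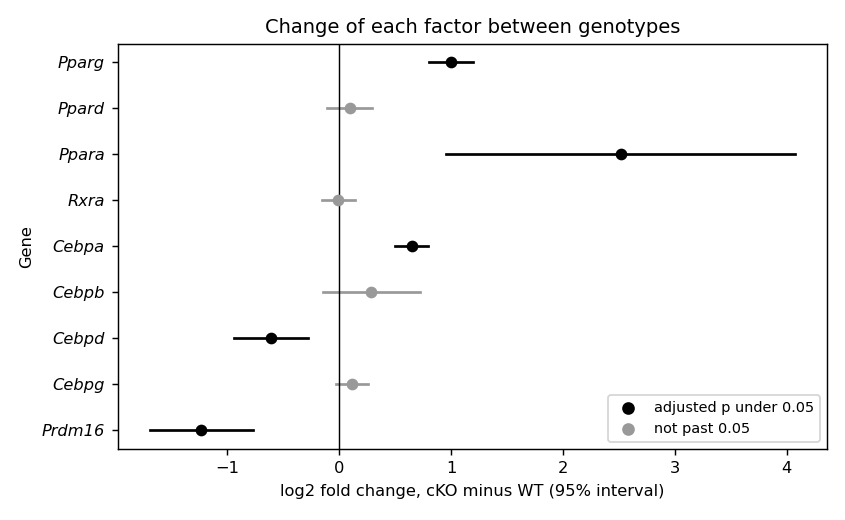
Log2 fold change of each factor, cKO minus WT, with its 95% interval from the edgeR fit over all genes. Black marks the 5 factors with an adjusted p under 0.05 and grey the other 4, and the interval of Ppara is the widest, from 0.95 to 4.08.

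Among the C/EBP factors, Cebpa rose. It stood at 213.4 and 222.8 CPM in WT and 334.5 and 349.7 CPM in cKO, with no overlap. The difference was 0.65 on the log2 scale (standard error 0.0610, interval 0.50 to 0.80, adjusted p = 0.000719), a 1.57-fold difference of the means, and it stayed called in each alternative fit at 0.62 to 0.75. Cebpa is a single-exon gene on chromosome 7 (35119293 to 35121928, GRCm38), and an antisense gene that shares 313 bp with it had 3 to 5 counts a library.

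Cebpd moved the other way. WT libraries had 47.7 and 63.9 CPM and cKO libraries 37.4 and 35.7 CPM, so that both cKO values lay below WT. Its difference was -0.61 on the log2 scale, with a standard error of 0.137 (adjusted p = 0.0191). The 2 WT libraries differed by 1.34-fold, and the call was lost without cKO replicate 2 (-0.57, adjusted p = 0.0741), with the cKO libraries summed (adjusted p = 0.0523) and in limma on log2(TPM + 0.1) (-0.49, adjusted p = 0.0632). The expression table lists Cebpd (chromosome 16, 15887286 to 15888466) as a pseudogene, although it encodes C/EBPδ.

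Cebpb did not pass the test either. WT replicate 1 had 77.9 CPM, below all others, whereas WT replicate 2 had 118.9 CPM, inside the cKO values of 117.1 and 122.4. The log2 fold change of 0.29 had an interval of -0.15 to 0.72 (adjusted p = 0.277), and the WT libraries decided its size. It was 0.019 without WT replicate 1, and 0.62 and called without WT replicate 2. With no filter on low counts it was also called, at 0.29 (adjusted p = 0.00159), although the groups overlapped. Its standard error was then 0.0795 against 0.180 with the filter, so that fit gave the distance between the WT libraries less weight. Cebpb shares 908 bp with Tmem189 on the opposite strand, which had 5202 to 6799 counts a library and a log2 fold change of 0.004 (adjusted p = 0.978). The use of strand in counting is not given in the sources used here, so reads of the shared stretch may belong to either gene.

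Cebpg, the dimer partner without an activation domain, stood at 97.6 and 95.6 CPM in WT and 106.7 and 102.4 CPM in cKO. The groups did not overlap, but the log2 fold change of 0.11 (interval -0.03 to 0.26) did not pass the test (adjusted p = 0.195). Without WT replicate 1 it was 0.13 and called (adjusted p = 0.00384).

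Per length, Cebpa was the highest of the 9 factors in both genotypes and Ppara the lowest. The WT order by mean TPM was Cebpa at 118.9 ± 1.74 (SD, n = 2), Cebpb at 102.0 ± 27.7, Cebpd at 78.4 ± 13.7, Rxra at 60.3 ± 3.74, Cebpg at 38.5 ± 0.106, Ppard at 31.1 ± 4.0, Pparg at 12.9 ± 0.354, Prdm16 at 1.98 ± 0.191 and Ppara at 0.045 ± 0.0354. Neighbours overlapped for Cebpa with Cebpb and for Cebpb with Cebpd. In cKO, Cebpa stood at 199.7 ± 6.89, Cebpb at 133.4 ± 4.36, Rxra at 67.6 ± 0.120, Cebpd at 55.3 ± 1.77, Cebpg at 41.8 ± 0.332, Ppard at 36.3 ± 1.24, Pparg at 32.0 ± 6.87, Prdm16 at 1.57 ± 0.785 and Ppara at 0.53 ± 0.339. Only Ppard and Pparg overlapped there. Rxra and Cebpd had thus exchanged places, and Pparg had come up to Ppard. Levels rebuilt from the counts and gene lengths of the table gave the same order of all 9 factors in both genotypes, but other values, with Cebpa at 219.3 in WT and 367.3 in cKO.

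**Figure D3:**
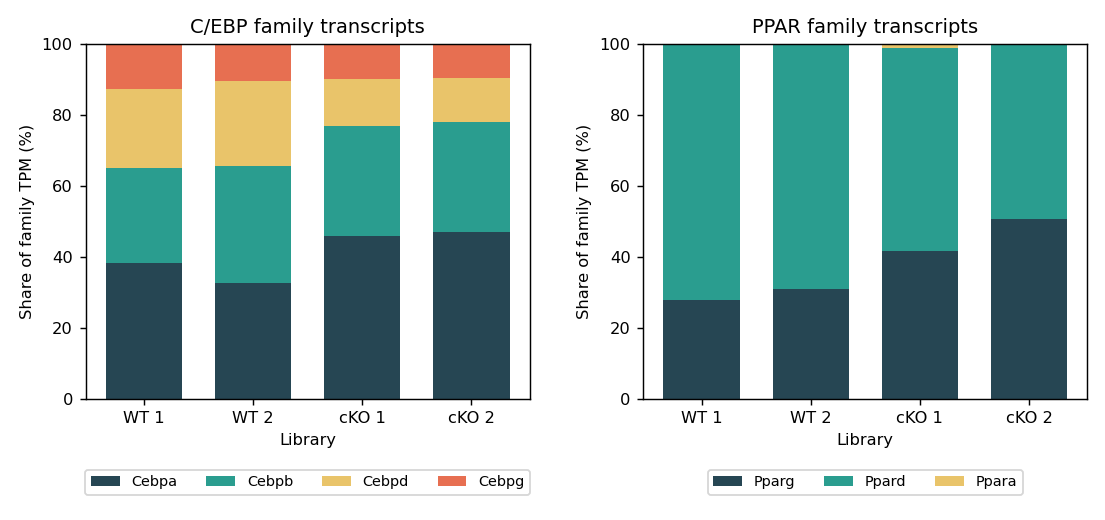
Share of each gene in the summed TPM of its family, in percent, for C/EBP factors on the left and PPARs on the right, 1 bar per library. Cebpd takes 22.3% and 23.9% of the C/EBP bars in WT and 13.3% and 12.4% in cKO, and Pparg takes more of the PPAR bars in both cKO libraries.

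In the C/EBP family, the ratio of Cebpa to Cebpd in TPM was 1.71 and 1.36 in WT and 3.45 and 3.79 in cKO, and that of Cebpb to Cebpd was 1.20 and 1.38 against 2.31 and 2.53. Cebpa gave 38.3% and 32.6% of the family in WT and 45.99% and 46.9% in cKO. The summed TPM of the 4 C/EBP genes was 307.3 and 368.2 in WT and 423.7 and 436.7 in cKO. These ratios, shares and sums come from 2 libraries a group and were not tested, and Cebpd did not pass on the TPM scale (adjusted p = 0.0632 in limma).

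Prdm16 fell in counts. The WT libraries had 187 and 194 counts, or 5.53 and 6.86 CPM, and the cKO libraries 60 and 88, or 2.48 and 2.76 CPM. This was a log2 fold change of -1.23 (standard error 0.191, interval -1.69 to -0.77, adjusted p = 0.00498), and it kept its call without any 1 library. The TPM values did not show the same picture, with 2.11 and 1.84 in WT and 2.12 and 1.01 in cKO. In limma on log2(TPM + 0.1) the value was -0.40 (adjusted p = 0.485). Prdm16 is a long gene on chromosome 4 (154316125 to 154636873). The cause of the difference between its counts and its TPM was not tested.

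By the smallest root mean square difference of centred log2 CPM over the 4 libraries, the genes most like Pparg were Fam46b (0.0161), Ctgf (0.0288) and Mturn (0.0294), and 106 genes lay within 0.1. For Cebpa they were Cacng7 (0.00886), Zfp592 (0.0115) and Bahcc1 (0.0144), with 306 genes within 0.1. The measure rests on 4 libraries in 2 genotypes.

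The m6A peaks of wild-type cells were read by the position of their summit on mm9. Of 10160 peaks, 14 lay within 8 of the 9 factors, and Pparg had none. Over 14118 tested genes with an mm9 entry, 40.3% had a peak. The share depended on level. Among genes within 1.5-fold of the WT level of Rxra, Cebpa, Cebpb, Cebpd or Cebpg it was 51.4% to 53.8%, and near Prdm16 it was 34.8%. Each peak sequence below shows the GGAC nearest the summit in capitals, since GGAC is the core of the usual methylation motif, within 29 bases 5′ to 3′ on the transcript strand. They are shown for 1 peak of each of 6 factors, with their places on mm9. The A of the GGAC shown lies from 2 (Cebpb) to 75 (Cebpa) and 79 (Cebpd) bases from the summit. Which base was methylated was not measured.
Ppard, CDS, chr17:28436770-28436798 (+): ggaaatctacaaGGACatgtactaaggcc
Rxra, 3′UTR, chr2:27616046-27616074 (+): aggtggcctgagGGACttggagctgaacc
Cebpa, CDS, chr7:35905433-35905461 (+): gagccgtgaactGGACacgctgcggggca
Cebpb, 3′UTR, chr2:167515592-167515620 (+): caccgggtttcgGGACttgatgcaatccg
Cebpd, exon, chr16:15888131-15888159 (+): gcagctcacccgGGACctggctggcctcc
Prdm16, 3′UTR, chr4:153694690-153694718 (-): aactggcctcaaGGACacgatctgcagtg

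Cebpa carried the peak with the highest pileup among these genes, 250 fragments at the summit, which ranked 20 of all peaks, with a −log10 q-value of 39.5 and a fold enrichment of 2.80. It spans 620 bp from the coding sequence into the 3′UTR, and its summit lies 142 nt before the last coding base. A second Cebpa peak near the start of the coding sequence was weak, with a fold enrichment of 1.66 and a −log10 q-value of 2.02. Cebpb had a peak in the 3′UTR with the highest fold enrichment of the 14, 4.69 (−log10 q-value 38.1), 195 nt past the last coding base, and the A of the GGAC shown lies 2 bases from its summit. Its other peak, in the coding sequence (fold enrichment 2.77), also lies within Tmem189 on the other strand, and the list gives no strand. Cebpd had a pair of peaks with fold enrichments of 2.64 and 2.59, in exons that the mm9 annotation gives without coding sequence. Cebpg had 1 peak in its coding sequence (fold enrichment 2.24), which held no GGAC.

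All 3 Rxra peaks lay in its 3′UTR, 837, 2628 and 3062 nt past the last coding base, with fold enrichments of 3.54, 2.88 and 2.66. Among genes within 1.5-fold of its WT level, 10.6% had 3 or more peaks. Prdm16 had a pair of 3′UTR peaks with fold enrichments of 4.07 and 4.42 but pileups of 21 and 18 fragments, where the median of all peaks is 60. The Ppara peak rested on a pileup of 5 fragments.

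Ppard had 1 peak in its coding sequence, with its summit 34 nt before the last coding base (fold enrichment 2.96, −log10 q-value 22.2). The GGAC nearest that summit sits in the last codons of the gene. The same place was read in the other PPARs, with the last 27 coding bases and the stop codon on mm9, and GGAC in capitals.
Ppard, chr17:28436765-28436794 (+): ctccaggaaatctacaaGGACatgtactaa
Pparg, chr6:115440184-115440213 (+): ctccaggagatctacaaGGACttgtattag
Ppara, chr15:85631659-85631688 (+): ttgcaagagatctacagagacatgtactga
Pparg and Ppard both hold GGAC there, with its A 7 nt before the last coding base, and Ppara does not. A peak was listed over this place in Ppard and none in Pparg, whose annotated mm9 transcript holds 4 GGAC in 1769 nt against 16 in 3218 nt for Ppard. Pparg stood at 15.9 CPM in WT and Ppard at 54.8 CPM. Of 2237 genes within 1.5-fold of the WT level of Pparg, 43.3% had a peak (95% Wilson interval 41.3% to 45.4%), and near the level of Ppard the share was 51.1%. The absence of a listed peak does not show that the transcript carried no m6A.

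**Figure D4:**
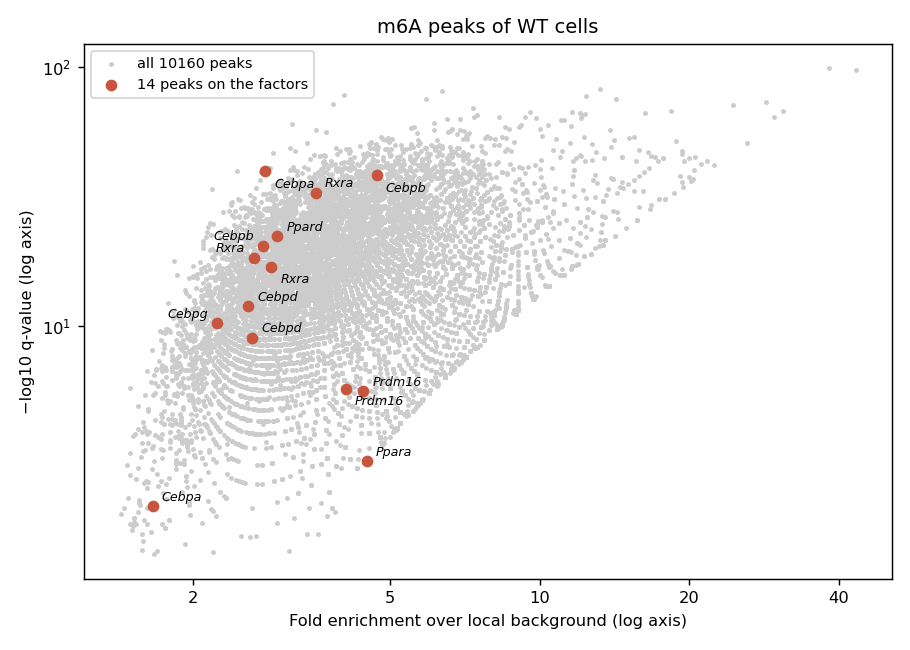
Fold enrichment over the local background against −log10 q-value, both on log axes, for all 10160 m6A peaks in grey and the 14 peaks on the factors in red. A peak each of Cebpa and Cebpb lies high in the cloud, at −log10 q-values of 39.5 and 38.1 and fold enrichments of 2.80 and 4.69. The median fold enrichment of all peaks is 4.03. The peaks of Prdm16 and Ppara lie low, at −log10 q-values of 3.01 to 5.74.

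Of the 14 peaks, 5 lay in coding sequence, 7 in the 3′UTR and 2 in the exons of Cebpd, against 56.7% and 23.7% of all peaks in coding sequence and the 3′UTR. Their median fold enrichment was 2.84, against 4.03 over all peaks, and 4 lay above that value. GGAC was present in 12 of the 14, and in 87.0% of all peaks within genes. Of the factors called in the RNA-seq comparison, Cebpa, Cebpd, Prdm16 and Ppara had a peak and Pparg had none, and all 4 factors that were not called had one. The peaks come from wild-type cells only, as 1 list for 4 samples, so neither their replicate error nor their change in cKO can be given.

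The promoters were searched for TTGCNNAA, a common form of the C/EBP binding sequence, on both strands from 250 bases before to 50 after each RefSeq gene start (GRCm38.p6). Of 32851 promoters, 10.8% held it. Promoter entries were found for 8 of the 9 factors, and a match was found only in 1 of the 3 Pparg promoters, at chromosome 6 from 115421816 to 115422115, where it occurred at a pair of places, 215 and 16 bases before the start. They are shown with the match in capitals, as a C/EBP sequence before a PPAR gene. Whether 1 promoter with a match among those of the factors exceeds the 10.8% was not tested.
Pparg, chr6:115421840-115421869 (+): tgtaccaagtcTTGCCAAAgcagcagacag
Pparg, chr6:115422039-115422068 (+): accaaccaatcTTTTGCAAgacatagacaa
A match is only a run of letters, and no binding was measured here. The counts are per gene and do not show which Pparg promoter was in use.

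Of 14 tested partners and coregulators of PPARs and RXRs, 8 were higher, 0 were lower and 6 were not called, with a median log2 fold change of 0.28 against -0.0038 for all genes. At an unadjusted edgeR p under 0.05, 1 was lower (Hdac3, -0.17), and DESeq2 and the limma fits also called 0 lower, whereas 1 was called lower without WT replicate 1 or WT replicate 2. Over all genes tested 13.7% were higher and 16.8% lower, the background for this and the following lists. With 1 library left out the calls over all genes moved too, from 4677 to between 1867 and 8750. Each difference was small. Nrip1, a corepressor, had the largest, 31.7 and 31.8 CPM against 45.2 and 47.8 CPM (0.55, adjusted p = 0.00261). Ncor1, a corepressor that holds unliganded nuclear receptors silent, rose by 0.28 (adjusted p = 0.0126). The acetyltransferase genes Ep300 and Crebbp rose by 0.47 and 0.28 (adjusted p = 0.00303 and 0.0441), so that corepressors and coactivators moved the same way. The number called was 5 in limma on log2(TPM + 0.1), 3 without cKO replicate 1 and 1 without cKO replicate 2.

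Of 6 other tested genes of bZIP type or with a C/EBP name, 1 was higher and 2 lower (median -0.03). Cebpz, in the list by its name and not a bZIP gene, was not called (adjusted p = 0.660). Nfil3, a repressor, fell from 93.3 and 115.9 CPM to 21.5 and 20.8 CPM (-2.31, adjusted p = 5.89e-05). Atf4, the stress-responsive factor, fell by 0.35 (adjusted p = 0.00567), and Dbp, a clock output gene, rose by 0.75 (adjusted p = 0.0267), a call lost on the TPM scale (0.0558). Atf5 stood at 97.1 to 107.5 CPM in all libraries.

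Other factors that promote fat cell formation were divided. Of 21 tested, 9 were higher, 3 were lower and 9 were not called (median 0.10). Ebf2, a factor that marks and primes preadipocytes, had 5.97 and 4.88 CPM in WT and 44.9 and 44.6 CPM in cKO (3.04, adjusted p = 2.01e-05). Klf5 (2.34, adjusted p = 0.000546) and Klf15 (1.04, adjusted p = 0.00164), both known to act on Pparg, rose as well. Klf4, which acts early on Cebpb, went the other way, from 177.6 and 191.3 CPM to 44.6 and 44.5 CPM (-2.05, adjusted p = 1.22e-05). Klf9 rose by 0.38 (adjusted p = 0.0342) but lost the call on the TPM scale (adjusted p = 0.0577). Only 4 of the list were called without cKO replicate 1 and 5 without cKO replicate 2.

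Of 21 tested factors that restrain fat cell formation, 5 were higher, 8 lower and 8 not called (median -0.15). Foxc2 fell from 56.5 and 62.8 CPM to 9.95 and 9.85 CPM (-2.59, adjusted p = 1.55e-05), and Gata2 and Gata3, which repress Pparg, had log2 fold changes of -0.94 and -1.69 (adjusted p = 0.00518 and 0.0125). Nr2f2, an orphan receptor, rose from 4.61 and 5.87 CPM to 45.5 and 46.5 CPM (3.14, adjusted p = 2.29e-05). Ctnnb1, the gene of β-catenin, stood at 611.1 to 676.3 CPM with overlapping groups, and Tsc22d3, a glucocorticoid-induced gene, had a value of 0.19 that did not pass (adjusted p = 0.0576). It was called without a filter on low counts (adjusted p = 0.0417) and in limma on log2(TPM + 0.1) (0.29, adjusted p = 0.0350). Sox9, in this list, is also a chondrocyte marker. Without cKO replicate 1 or cKO replicate 2, 7 of the list were called.

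**Figure D5:**
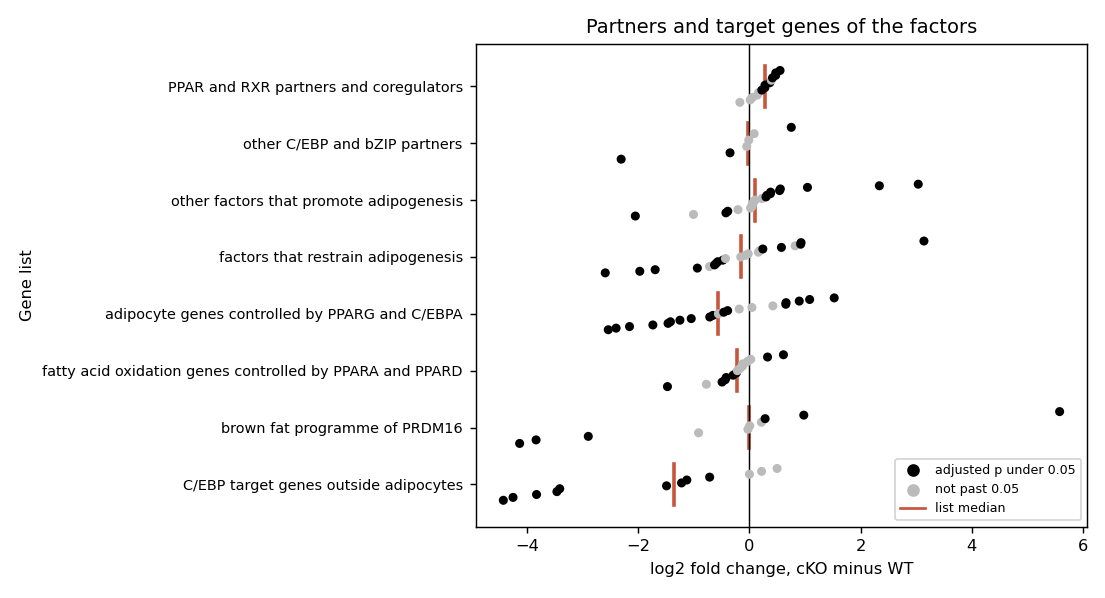
Log2 fold change, cKO minus WT, of each tested gene in 8 lists of partners and targets of the factors, with genes called in black, the others in grey and the list median as a red bar. The coregulators cluster just above 0, the adipocyte genes spread to both sides, and most C/EBP targets outside adipocytes lie far to the left. The value of Tbx1 at the far right rests on 1 count in WT.

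The adipocyte genes under PPARγ and C/EBPα control were split, with more of them lower than higher. Of 21 tested, 5 were higher, 12 lower and 4 not called, with a median of -0.56. Retn, among the 12, had 44 and 53 counts in WT and 3 and 14 in cKO. It passed the filter on low counts only through its WT libraries, so its call adds no support. The 5 that rose were Lipe (1.53), Fabp4 (1.08), Lpl (0.90), Plin1 (0.66) and Adipoq (0.65), which encode a lipase, a fatty acid binding protein, a lipoprotein lipase, a droplet coat protein and the hormone adiponectin. Fabp4 and Plin1 were named by the study from these libraries and are not independent evidence of a direction. Lpl, which frees fatty acids from lipoproteins, was the highest that rose, at 293.3 and 292.1 CPM against 543.3 and 546.9 CPM (adjusted p = 0.000131). Lipe, the hormone-sensitive lipase, had 7.57 and 9.98 CPM against 24.3 and 25.9 CPM (adjusted p = 0.000696), and an antisense gene overlaps it.

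Among the 12 that fell, Cidec, which makes lipid droplets grow, had 20.5 and 28.1 CPM in WT and 4.13 and 4.20 CPM in cKO (-2.54, adjusted p = 0.000231). Dgat1 and Dgat2, the enzymes of the last step of triglyceride synthesis, had log2 fold changes of -2.15 and -1.46 (adjusted p = 1.59e-05 and 0.00191). Plin4, a droplet coat protein, fell by 1.74 (adjusted p = 8.47e-05), and Scd1, the stearoyl-CoA desaturase, went from 312.8 and 351.7 CPM to 203.4 and 202.2 CPM (-0.71, adjusted p = 0.00104). The fatty acid transporter Cd36 (-0.66, adjusted p = 0.0287) and the insulin-responsive glucose transporter Slc2a4 (-1.42, adjusted p = 0.0127) fell too, as did the lipase gene Pnpla2 (-0.39, adjusted p = 0.0130). By qRT-PCR after adipogenic induction, the study reported Cd36 as higher in cKO cells, along with Cebpa, Pparg, Adipoq and Plin1. The libraries here came from the medium that favours bone formation. Agpat2, an enzyme of triglyceride synthesis, had a value of -0.18 that did not pass (adjusted p = 0.282). In limma on log2(TPM + 0.1) the list stood at 5 higher and 8 lower, with a median of -0.37.

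Of 15 tested fatty acid oxidation genes that answer to PPARα and PPARδ, 2 were higher, 6 lower and 7 not called (median -0.22). Pdk4, which diverts pyruvate from oxidation, rose from 36.0 and 34.4 CPM to 55.3 and 52.4 CPM (0.61, adjusted p = 0.00164), and Cpt1a, which admits fatty acids to mitochondria, rose by 0.33 (adjusted p = 0.0332). Angptl4, a lipase inhibitor, had a log2 fold change of -1.47 (adjusted p = 0.00963), and the droplet protein Plin2 one of -0.43 (adjusted p = 0.00486). The list was among the least stable, with 0 higher and 3 lower in limma on log2(TPM + 0.1), where its median was -0.02 and Pdk4 and Plin2 lost their calls (adjusted p = 0.0912 and 0.0520). With cKO replicate 1 or cKO replicate 2 left out, 3 were called, and with WT replicate 1 left out 13 were.

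The brown fat genes tied to PRDM16 were mostly close to the limit of detection. Of 15 listed, 10 were tested, with 3 higher, 3 lower and 4 not called (median -0.01), whereas DESeq2 called 1 higher and 3 lower. Tbx1, Ucp1 and Tmem26 passed the filter on low counts only through the group where they are high, so their calls add no support. Ucp1, the uncoupling protein that defines brown fat, had 15 and 20 counts in WT and 2 and 0 in cKO, a ratio of 0.0632 with an exact counting interval of 0.0074 to 0.246. Cidea, Cox8b, Elovl3, Zic1 and Lhx8 had at most 3 counts in any library. Dio2, which activates thyroid hormone, fell from 28.99 and 42.9 CPM to 1.86 and 2.20 CPM (-4.13, adjusted p = 0.000106). Tbx1, a marker of beige precursors, had 0 and 1 counts in WT and 26 and 28 in cKO, a ratio of 59.7 with an exact counting interval of 10.3 to 2403. Ctbp1 and Ehmt1, partners of PRDM16 that are expressed in many cells, had values of 0.01 and 0.22 and did not pass (adjusted p = 0.945 and 0.0583). Ehmt1 was called in limma on log2(TPM + 0.1) (0.43, adjusted p = 0.0344). Besides Tbx1, the genes called higher in the edgeR fit were Ctbp2 (0.28, adjusted p = 0.0304) and Mecom (0.98, adjusted p = 0.0205).

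C/EBP factors also serve the acute phase and cytokine genes of other cell types, and most of those tested fell. Of 12 tested, 0 were higher, 9 lower and 3 not called (median -1.35), and 0 were higher at an unadjusted edgeR p under 0.05, in DESeq2 or in limma. Without a filter on low counts 2 were higher, and without WT replicate 1 or WT replicate 2 there was 1. Lcn2, an iron-binding acute phase protein, had 40.2 and 39.4 CPM in WT and 1.77 and 1.91 CPM in cKO (-4.42, adjusted p = 4.08e-06). Ptgs2, the inducible prostaglandin synthase, fell by 4.25 (adjusted p = 2.51e-05). Serpina3n, a protease inhibitor, fell by 3.83 (adjusted p = 1.08e-05), and the cytokine gene Il6 fell by 3.41 (adjusted p = 0.000125), again as log2 values. Hp, which encodes haptoglobin, went from 644.6 and 905.0 CPM to 355.9 and 354.9 CPM (-1.12, adjusted p = 0.00280). Lyz2, a C/EBP target that is also a macrophage marker, stood at 10984 and 15934 CPM in WT and 15633 and 15714 CPM in cKO and did not pass (0.22, adjusted p = 0.342). Without a filter on low counts it was called (0.23, adjusted p = 8.07e-06) although the groups overlapped, in a fit that gave replicate spread less weight. Its log2 fold change was -0.017 without WT replicate 1 and 0.51 without WT replicate 2, in opposite directions. The count of 9 lower was also found in limma on log2(TPM + 0.1).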

How the data were processed

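RNA-seq covered 2 WT and 2 cKO libraries, grouped by sample titles, and MeRIP-Seq 2 immunoprecipitates and 2 inputs. Reads were checked by the authors with FastQC and the FASTX toolkit, mapped with HISAT2 2.0.4 and tested with Ballgown. The submitters' processing notes also list TopHat, MACS2 and the builds mm10 and mm9. The counting program and its use of strand are not given in the sources used here. For each gene the authors deposited an estimated count that was not normalized, and a value headed FPKM whose sum is 1000000 in each library and which was therefore read as TPM. Positions in the expression table are those of GRCm38. The deposited peak list holds pileup signal, fold enrichment as a ratio over local background, and −log10 q-values from the authors' caller. It is 1 list for 4 samples, and pooling is not stated.

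Estimated counts were rounded. The 89 rows without a gene name, 0.110% to 0.125% of counts, were left out. The quasi-likelihood test of edgeR 4.0.16 was run two-sided and without a block, after filterByExpr and TMM scaling. P-values were adjusted by Benjamini-Hochberg over the 15327 genes, with a threshold of 0.05. Standard errors come from the fold change and its F statistic. Scripts were tested on simulated data. Alternatives were no filter, median-of-ratios factors, DESeq2 1.42.0, limma 3.58.1 on log2(TPM + 0.1) or log2(TPM + 1) for genes with a mean TPM of at least 0.5 and on log2(TPM + 0.1) unfiltered, a replicate block, each library left out and the cKO libraries summed. Peaks were placed by summit on GENCODE vM1 (mm9). A summit in more than 1 gene went to a listed factor first, then by region (coding sequence first) and then to the more expressed gene. Intervals from counts cover counting error alone, because no molecular identifiers mark which reads came from separate molecules.

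The factors and lists were chosen with earlier results of these data known. Named genes are the 9 factors, Mettl3, the 2 highest genes of each list and its largest rise and fall among called genes without overlap, and the 3 genes most like Pparg and Cebpa. Of these, 2 genes are not reported here. Other list members were named after their values were seen.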

Additional observations from a re-analysis of the deposited data

How the results depend on the processing

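The calls of Pparg and Cebpa held under each of the 12 alternatives. Genes called numbered 2852 in limma on log2(TPM + 0.1), 2831 on log2(TPM + 1), 1760 on log2(TPM + 0.1) without a filter, 2012 with the cKO libraries summed, and 1867 to 8750 with 1 library left out, against 4677. A library alone in its group is assumed to vary like the other group, and the close cKO pair then sets the spread when a WT library is left out. Of the genes called, 44.9% were higher in the edgeR fit and 56.8% in limma on log2(TPM + 0.1), where the median of all genes was 0.099 against -0.0038. Factors called numbered 2 in all 3 limma fits, 3 with the cKO libraries summed and 3 to 7 with 1 library left out, and genes called over the lists numbered 37 in the unfiltered limma fit, 45 with the cKO libraries summed and 41 to 97 with 1 left out, against 76.

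In the order limma on log2(TPM + 0.1), on log2(TPM + 1) and unfiltered, Cebpd was -0.49, -0.49 and -0.49, Prdm16 -0.40, -0.25 and -0.40, and both lost their calls. Rxra turned to 0.17, 0.16 and 0.17, Atf5 to 0.17, 0.17 and 0.17 and Ctnnb1 to 0.0069, 0.0069 and 0.0069. With the cKO libraries summed, Cebpd was -0.61 and Ppara 2.55, both no longer called, and Atf5 turned to 0.00097. Ppara also lost its call in DESeq2 (2.60) and in the unfiltered limma fit (2.03), and Cebpb gained one without the filter (0.29). The unfiltered edgeR fit gave a gene's own replicate spread less weight, with a standard error of 0.0795 for Cebpb against 0.180 in the main fit. Calls gained only there carry this limit.

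With 1 library left out, Ppard ranged from -0.00068 to 0.19, Rxra from -0.047 to 0.037, Cebpg from 0.088 to 0.15, Ppara from 1.98 to 3.61, Cebpb from 0.019 to 0.62, Cebpd from -0.80 to -0.39, Mettl3 from -0.078 to 0.023, Atf5 from -0.083 to 0.074, Ctnnb1 from -0.095 to 0.060, Ctbp1 from -0.0063 to 0.024 and Lyz2 from -0.017 to 0.51.

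Ncor1, Atf4, Klf9 and Plin2 lost their calls without either cKO library and with the cKO libraries summed. With the replicate number as a block, 4881 genes, 5 factors and 75 list genes were called. The numbers did not pair the libraries (correlation of the WT and cKO replicate differences over genes 0.0364). Of the peaks, 4 on 3 factors had a fold enrichment of at least 4, and 12 on 7 had a −log10 q-value of at least 5. Rebuilt per-length levels moved, for example Rxra to 104.3 in WT. The cause of these changes was not tested.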
